A study of Homo sapiens with 114 samples.

Results

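The genes followed here are 30 established transcriptional targets of p53, taken by gene symbol from a fixed list, in HK-2 cells exposed to 9 compounds. Of these, 27 have a probe set of their own among the 19775 genes of the array table, and BBC3, FDXR and BTG2 are not analysed here. HK-2 is an immortalized human line from the proximal tubule of the kidney, and all groups compared are cultures of this 1 line. The labels give the compounds only as Aa, Nnm, Kbr, Ota, CsA, Fk, Ra, CdCl and Di, and the doses only as high or low.

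RNA was measured on Affymetrix arrays in 26 treated and 12 control groups, each of 3 arrays that the labels number as biological replicates. Aa had a low and a high dose, each with samples at 24 and 48 h, and controls of its own. The doses and times of Nnm and Kbr were the same, but both were set against 1 shared series of controls, so their changes are not independent. For Ota the doses were again low and high and the times 24 and 72 h. The other 5 had a single dose, sampled at 12 and 48 h: CsA with its own controls, Fk and Ra with shared ones, and CdCl and Di with shared ones. Only the labels of CsA and its controls name a lab (lab 3). Between compounds, CsA and that label cannot be told apart. Controls received the vehicle, and cells were close to confluent when treated. Aa, Nnm and Kbr were set against the other 6 compounds as DNA-damaging agents, a grouping that the labels do not state.

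The transcription factor p53 is held at a low level by the ubiquitin ligase MDM2 and accumulates when DNA is damaged or cells are otherwise stressed. It then activates genes that halt the cell cycle, repair DNA, permit apoptosis or adjust metabolism, and also MDM2 and other genes that limit its own activity. HK-2 cells were immortalized with the E6 and E7 genes of a human papillomavirus, and the E6 protein directs p53 to degradation through the host ligase UBE3A. Several of the listed genes are also activated by other regulators, among them the stress factor ATF4.

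Promoter sequences from RefSeq (GRCh38.p14), from 250 bases before to 50 after each annotated start, were searched on both strands for the p53 half-site, the decamer of which a p53 response element holds a pair. At least 1 promoter entry was found for 24 of the 30 genes. The half-site occurred in 6 of these 24, against 2202 of 27305 genes in the table (8.06%). A pair of half-sites with 0 to 13 bases between them occurred in 10 genes of the table (0.0366%), and DDB2 was among them. The sequences below are 30-base stretches around the match in the 5 genes of the array table that hold 1, shown because their responses differed, and capitals mark the half-site. They lie at chr11:47214975-47215004 on the plus strand for DDB2, at chr15:88621296-88621325 on the plus strand for AEN, and at chr5:58460199-58460228 on the minus strand for PLK2. The stretch of FAS lies at chr10:88991299-88991328 on the plus strand and that of SESN1 at chr6:109009018-109009047 on the minus strand, each at 1 of 3 annotated starts. The match began 6 bases into the transcript in DDB2, and before the start in the other 4, at −34 in AEN, −132 in PLK2, −122 in FAS and −49 in SESN1.
DDB2: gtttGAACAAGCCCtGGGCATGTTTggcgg
AEN: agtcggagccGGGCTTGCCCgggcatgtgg
PLK2: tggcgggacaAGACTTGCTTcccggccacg
FAS: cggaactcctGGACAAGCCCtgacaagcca
SESN1: attgtcgtctGGACAAGTCTccacaagtca
A match is a description of the letters only. The ATF4 motif TGATGNAA, searched the same way, occurred in 1217 of 27305 genes (4.46%) and in 1 of the 24, PLK3.

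The p53 targets did not move as a block. In the plot of changes by gene and treated group, a few genes were higher with many compounds, another few were lower with many compounds, and the repair genes DDB2 and XPC went opposite ways with Aa and Kbr. A gene was called when limma's adjusted p, over all genes tested in the comparison, was under 0.05. Of the 27 genes, 25 passed the filter on dim genes in every comparison. EDA2R (1.99 to 2.53) and SPATA18 (2.60 to 3.14) lay at background on every array. Over the 26 comparisons 199 of 650 tests of the 25 genes were called (30.6%), 97 higher and 102 lower, against 26.9% of all gene tests. In the 12 comparisons of Aa, Nnm and Kbr 103 of 300 were called (34.3%, all genes 31.2%), and in the 14 others 96 of 350 (27.4%, all genes 23.2%).

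**Figure D1:**
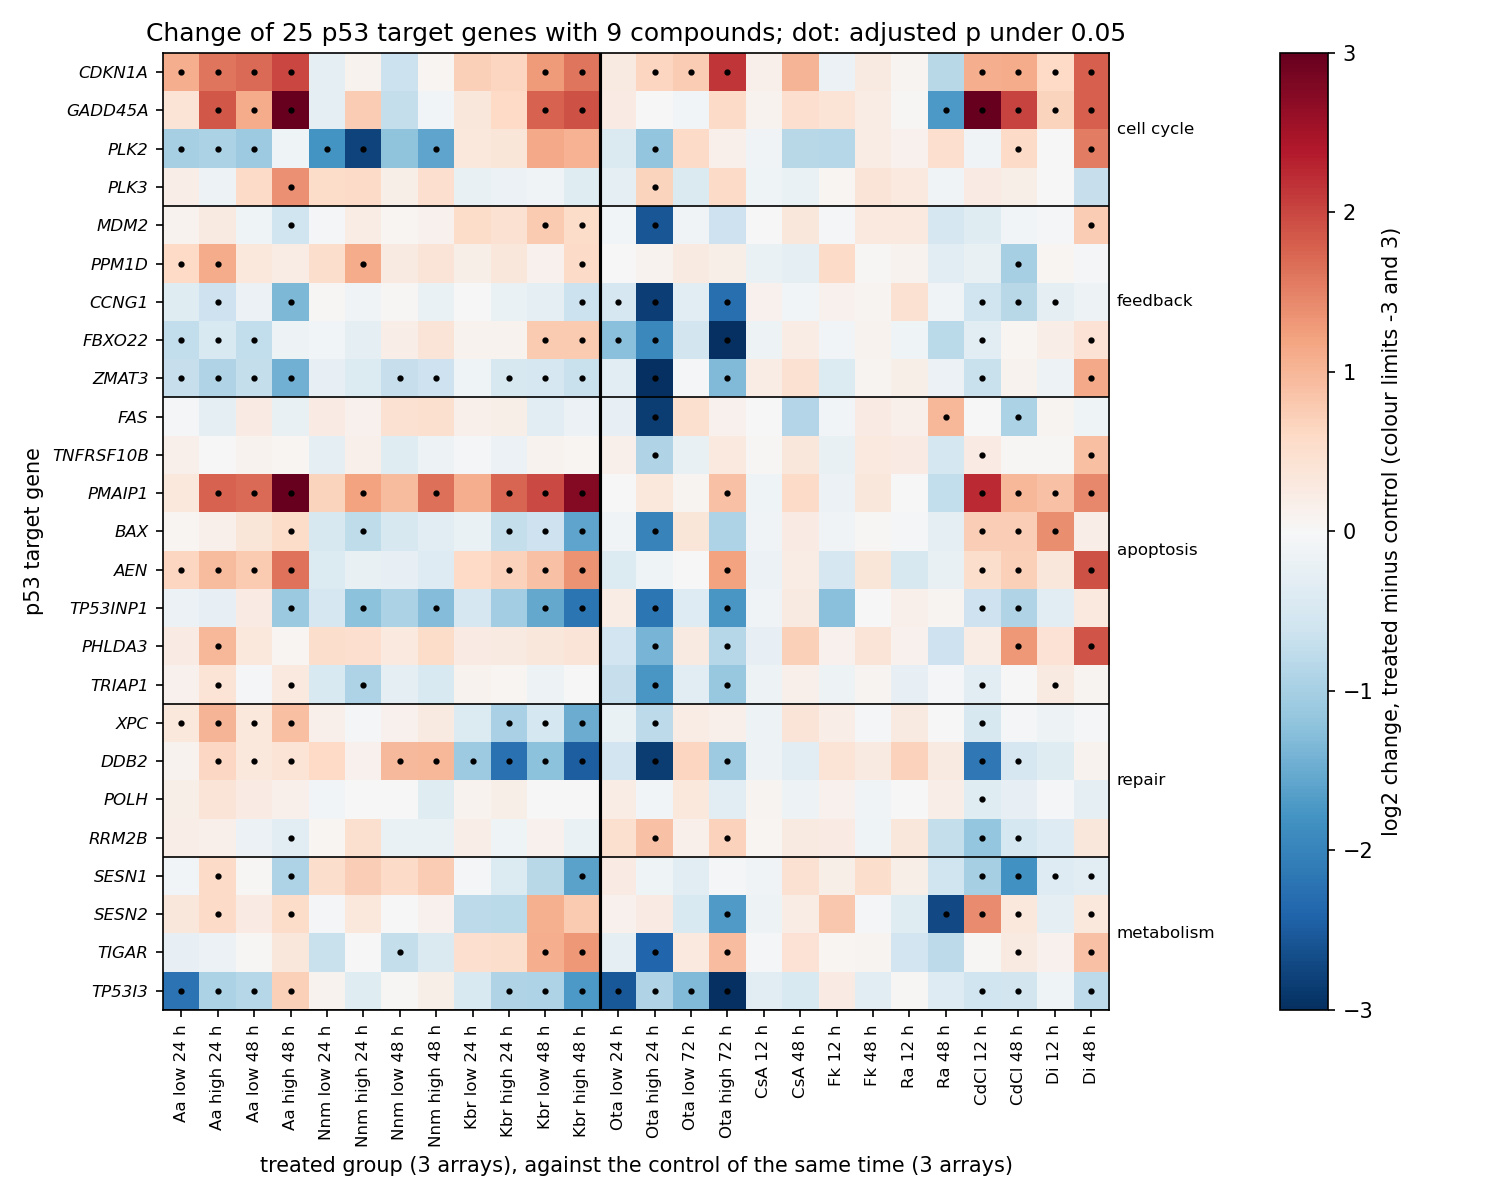
Log2 change, treated minus control, of the 25 p53 target genes (rows, by role) in the 26 treated groups (columns; 3 arrays against 3 controls of the same time); dots mark adjusted p under 0.05 and the vertical line divides Aa, Nnm and Kbr from the other compounds. CDKN1A and PMAIP1 carry dots only in red cells (13 each), while CCNG1 and TP53INP1 carry dots only in blue cells (9 each).

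Aa at the high dose for 48 h called 17 of the 25 genes, 11 higher and 6 lower, beside 64.3% of all genes tested (29.8% higher, 34.5% lower). The largest rises were those of PMAIP1, GADD45A and CDKN1A and the largest falls those of ZMAT3, CCNG1 and TP53INP1. At the high dose for 24 h 16 genes were called, 11 higher and 5 lower (all genes 49.9%, 26% higher and 23.9% lower). The low dose called 10 at 48 h, 6 higher and 4 lower (all genes 37%, 17.7% higher and 19.3% lower). At 24 h it called 8, 4 each way (all genes 23.2%, 10.2% higher and 13% lower). Without replicate 3 of that group it called 5, beside 1839 of 11106 genes. With Kbr at the high dose for 48 h, 16 were called, 8 each way (all genes 51.1%, 22.2% higher and 28.9% lower). PMAIP1, GADD45A and CDKN1A rose most and DDB2, TP53INP1 and TP53I3 fell most. Kbr at the low dose for 48 h gave 13, 7 higher and 6 lower (all genes 29.4%, 15.2% higher and 14.3% lower). At the high dose for 24 h it gave 7, 2 higher and 5 lower (all genes 21.6%, 8.17% higher and 13.4% lower). Without control replicate 1 it gave 4, beside 1332 of 11036 genes. At the low dose for 24 h it gave only DDB2, which was lower (all genes 1.36%, 0.671% higher and 0.689% lower). It gave 0 without any 1 of the Kbr arrays or without control replicate 1 or 2, beside 5 to 59 of 11036 genes. DDB2 also lost that call without the filter on dim genes (adjusted p = 0.0628).

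Nnm called fewer of these genes. At the high dose for 48 h it was 5, beside 27.7% of all genes (15.4% higher, 12.3% lower), with PMAIP1 and DDB2 higher and PLK2, TP53INP1 and ZMAT3 lower. At the high dose for 24 h it was 6, 2 higher and 4 lower (all genes 35.9%, 17.6% higher and 18.4% lower). The low dose gave 3 at 48 h, 1 higher and 2 lower (all genes 14.1%, 8.39% higher and 5.73% lower), and at 24 h only PLK2, which was lower (all genes 18.5%, 9.39% higher and 9.13% lower). These counts rested on single arrays. At the high dose for 48 h 1, 9 and 3 genes were called without Nnm replicate 1, 2 and 3, and at the high dose for 24 h 13 without Nnm replicate 2. Without Nnm replicate 3 at the low dose for 48 h 0 were called, and 1 without either replicate 1 or control replicate 2. At the low dose for 24 h 0 were called without Nnm replicate 1 or control replicate 3, and 2 without Nnm replicate 2. With the replicate number as a block, the low dose for 24 h gave 3 with Nnm, beside 3522 of 11036 genes, and 2 with Kbr, beside 857 of 11036.

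Among the other 6 compounds, Ota at the high dose for 24 h called 18 of the 25, 3 higher and 15 lower (all genes 65%, 21.4% higher and 43.6% lower). At 72 h it called 14, 5 higher and 9 lower (all genes 63.2%, 25.3% higher and 37.9% lower). The low dose of Ota called 3 at 24 h, all lower (all genes 13.7%, 3.72% higher and 9.99% lower), and 2 at 72 h, 1 each way (all genes 16%, 9.01% higher and 7.02% lower). CdCl called 18 at 12 h, 7 higher and 11 lower (all genes 48.7%, 14.5% higher and 34.3% lower), and 17 at 48 h, 9 higher and 8 lower (all genes 46.4%, 22.9% higher and 23.5% lower). Di called 7 at 12 h, 5 higher and 2 lower (all genes 11.8%, 3.61% higher and 8.23% lower). Without control replicate 2 it called 4, beside 599 of 11045 genes. At 48 h Di called 14, of which 12 were higher (all genes 47.4%, 21.4% higher and 25.9% lower). Ra called 3 at 48 h (all genes 9.33%, 1.87% higher and 7.46% lower): FAS was higher, and SESN2 and GADD45A were lower. In limma 0 of the 25 were called with CsA at 12 h (all genes 0%) and 48 h (0.00925%), Fk at 12 h (0.00918%) and 48 h (0%) and Ra at 12 h (0.0367%). At an unadjusted p under 0.05 there were 0 and 2 of the 25 with CsA at 12 and 48 h, 1 and 0 with Fk, and 3 with Ra at 12 h. All genes at that threshold were 88 and 1401 of 10806 with CsA, 465 and 348 of 10889 with Fk, and 780 of 10889 with Ra. With the replicate number as a block 0 were called with CsA at 12 h (0 of 10806 genes) and at 48 h (206 of 10806 genes). At 48 h that fit gave adjusted p = 0.0784 for CDKN1A (1.02 ± 0.27) and 0.26 for PMAIP1 (0.58 ± 0.28), both higher with CsA in 3 of 3 pairs.

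**Figure D2:**
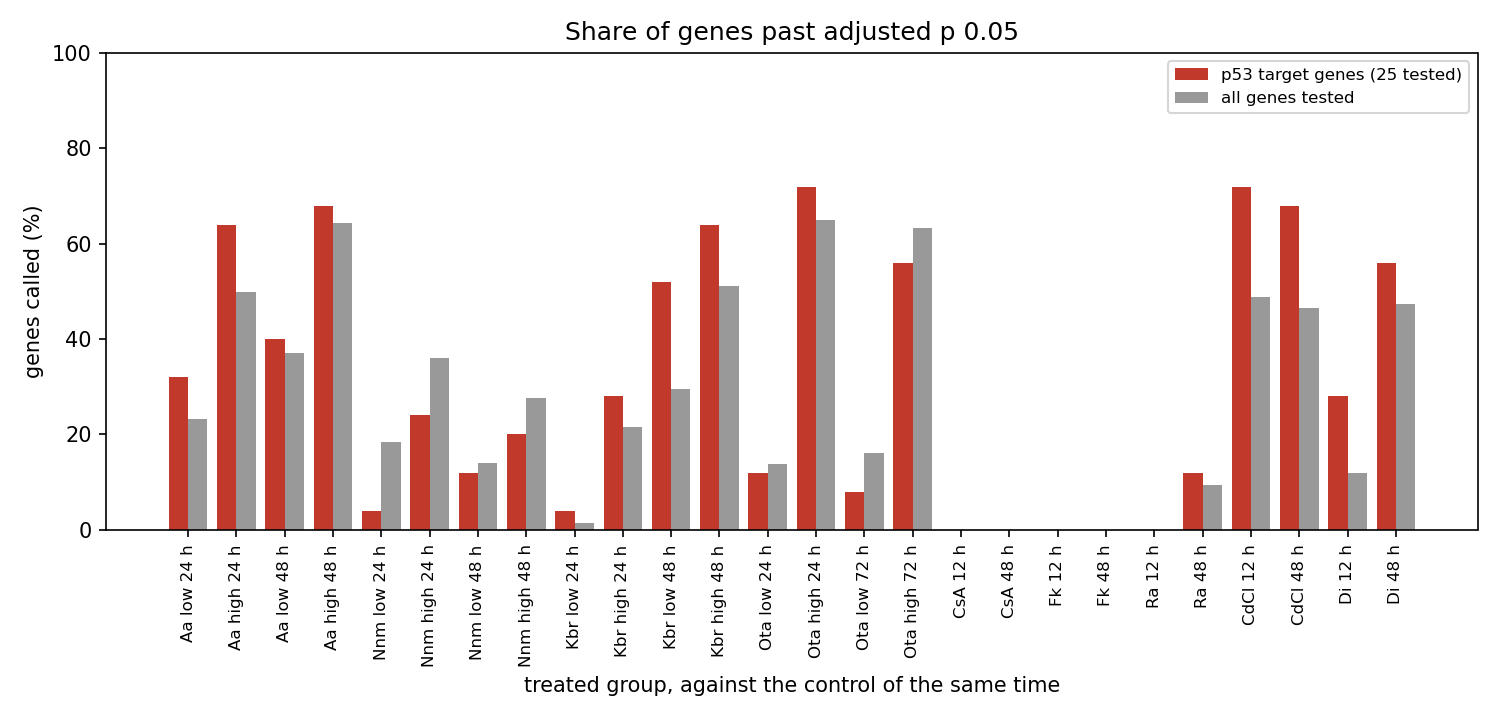
Percent of the 25 p53 target genes (red) and of all genes tested (grey) past an adjusted p of 0.05 in each of the 26 treated groups against the control of the same time. The red bar stands above the grey 1 in all 8 groups of Aa and Kbr and below it in all 4 groups of Nnm. It also stands above it in all groups of CdCl and Di, with Ota at the high dose for 24 h and with Ra at 48 h. In both Aa groups at 48 h the bars are close, and with Kbr at the low dose for 24 h the red bar is 1 gene.

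As to the arrays as a whole, all 5 epithelial markers (KRT8, KRT18, KRT19, CDH1 and EPCAM) were measured above background, while 0 of the 7 proximal tubule markers on the array (GGT1, ANPEP, MME, AQP1, CUBN, LRP2 and SLC34A1) had a median log2 level over 4. Of 4 markers of other nephron segments 0 were over 4, and of 5 markers of other cell types only COL1A1 was. The summed level of the proximal tubule list ran between 5.51 and 6.29 over single treated arrays and between 5.52 and 5.98 over single control arrays. That of the other cell types ran between 5.88 and 9.13 on treated arrays and 7.57 and 9.08 on control arrays. COL1A1, a collagen of fibroblasts, was called lower in all 4 Kbr groups (−1.23 to −2.71), with Ota at the high dose for 24 h (−2.04), with Nnm at the high dose for 24 h (−0.75) and with Aa at the low dose for 24 h (−0.94). Of the 5 epithelial markers 3 were lower and 1 higher with Aa at the high dose for 48 h and with Di at 48 h, and 3 were lower with Kbr at the high dose for 48 h. Replicate 2 of Ra at 48 h stood apart, with an upper quartile of 6.09 against 6.88 to 6.96 in its controls. The Ra count at 48 h was 3 without it (601 of 10889 genes) and 0 without control replicate 1 (67) or 2 (25). It was 7 without Ra replicate 1 (2361) and 2 without Ra replicate 3 (547). The upper quartiles of Ota at the high dose for 24 h were 6.32 to 6.59, against 6.97 to 7.08 in its controls, and the median change of all genes there was −0.29, or −0.07 after quantile normalization. The difference between the 3′ and 5′ probe sets of ACTB was 1.35 in Aa at the high dose for 48 h against 0.932 in its controls, 1.93 in Ota at the high dose for 72 h against 1.37, and 1.43 in Di at 12 h against 1.95. The part of these differences in the results was not tested. In bulk samples, fewer cells of a kind and less RNA per cell cannot be told apart.

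Of the 4 measured genes of cell cycle arrest, 3 rose at the high dose of Aa for 48 h, 2 with Kbr, 1 with Ota at 72 h and 3 each with CdCl and Di at 48 h, and none fell in these groups, while with Nnm 1 fell. Counts by role, of these genes and of the other roles, stand beside the shares of all genes called in the same groups (64.3% with Aa, 27.7% with Nnm, 51.1% with Kbr, 63.2% with Ota, 46.4% with CdCl and 47.4% with Di), and nothing particular to a role is drawn from them. CDKN1A, the inhibitor of cyclin-dependent kinases that carries out p53's arrest in the first gap phase, was higher in 13 of the 26 comparisons and lower in none. Its log2 levels were 11.11, 11.02 and 11.28 with Aa at the high dose for 48 h, against 9.18, 8.69 and 9.51 in controls, a change of 2.01 ± 0.19 (SE; adjusted p = 3.073e-07). With Kbr at the high dose for 48 h they were 10.84, 10.73 and 10.76, and with Nnm 9.92, 7.85 and 9.91, against 9.41, 8.77 and 9.34 in the controls these share. The Kbr arrays all lay above the controls (1.60 ± 0.46, adjusted p = 0.00552), whereas Nnm replicate 2 lay below all 3 of them and the Nnm change was not called. For the high dose of Ota at 72 h the levels were 11.12, 10.96 and 11.59, against 9.10, 9.11 and 9.06, the largest CDKN1A change of the 26 (2.14 ± 0.19, adjusted p = 1.306e-07). With CdCl for 48 h they were 11.28, 11.16 and 11.15, and with Di 11.81, 11.92 and 11.91, against 10.02, 10.06 and 10.15 in shared controls. Those changes were 1.12 ± 0.09 and 1.80 ± 0.09. CDKN1A was thus called in all 4 groups of Aa, both Kbr groups at 48 h, 3 of 4 Ota groups and all groups of CdCl and Di, and in none of the 4 Nnm groups. With CsA for 48 h it was 9.92, 10.71 and 10.78 against 8.79, 9.62 and 9.93, with Fk 12.28, 11.64 and 11.80, and with Ra 11.33, 10.26 and 10.83, both against 12.00, 11.66 and 11.28. None of these 3 differences was called, and the level in the controls named here itself ran between 8.69 and 12.00.

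GADD45A, a stress sensor that slows the cell cycle at the entry to mitosis, was higher in 9 comparisons and lower in 1. With Aa at the high dose for 48 h it was 12.00, 12.12 and 12.54, against 9.13, 9.30 and 9.20 in controls (3.01 ± 0.18, adjusted p = 9.009e-09). With Kbr it was 11.50, 11.47 and 10.44, against 9.62, 8.85 and 9.24 (1.90 ± 0.42, adjusted p = 0.00068). The treated arrays of both compounds lay above all their controls. With CdCl for 48 h it was 12.65, 12.52 and 12.83, and with Di 12.35, 12.46 and 12.43, against 10.52, 10.73 and 10.63 in shared controls (2.04 ± 0.11 and 1.79 ± 0.11). Its rise with CdCl was larger at 12 h, at 12.08, 12.17 and 12.46 against 9.39, 9.11 and 9.24. The only fall was with Ra at 48 h, at 11.21, 10.23 and 10.19 against 12.05, 12.21 and 12.51 (−1.71 ± 0.36, adjusted p = 0.0168), and that call was lost without control replicate 1 or 2.

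PLK2, a polo-like kinase induced by p53 in the cell cycle checkpoint, went the other way in part. It fell with Nnm at the high dose for 24 h, to 8.30, 10.72 and 8.60 against 12.01, 11.74 and 12.18 in controls (−2.77 ± 0.51, adjusted p = 0.00046). At 48 h it was 8.98, 10.18 and 10.41, against 11.29, 11.29 and 11.75 (−1.58 ± 0.51, adjusted p = 0.024), and this call was lost without Nnm replicate 1 or control replicate 3. PLK2 was also called lower in 3 of 4 Aa groups and with Ota at the high dose for 24 h. It was higher with Di at 48 h, at 12.62, 12.84 and 12.94 against 11.22, 11.45 and 11.11 (1.54 ± 0.11), and with CdCl at 48 h, at 11.96, 11.68 and 11.89 (0.58 ± 0.11). With Kbr at the high dose for 48 h, at 12.63, 12.59 and 12.22, its arrays were above the controls but the change was not called. PLK3, a related kinase, was called only with Aa at the high dose for 48 h (1.37 ± 0.21) and with Ota at the high dose for 24 h (0.67 ± 0.26), higher in both.

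**Figure D3:**
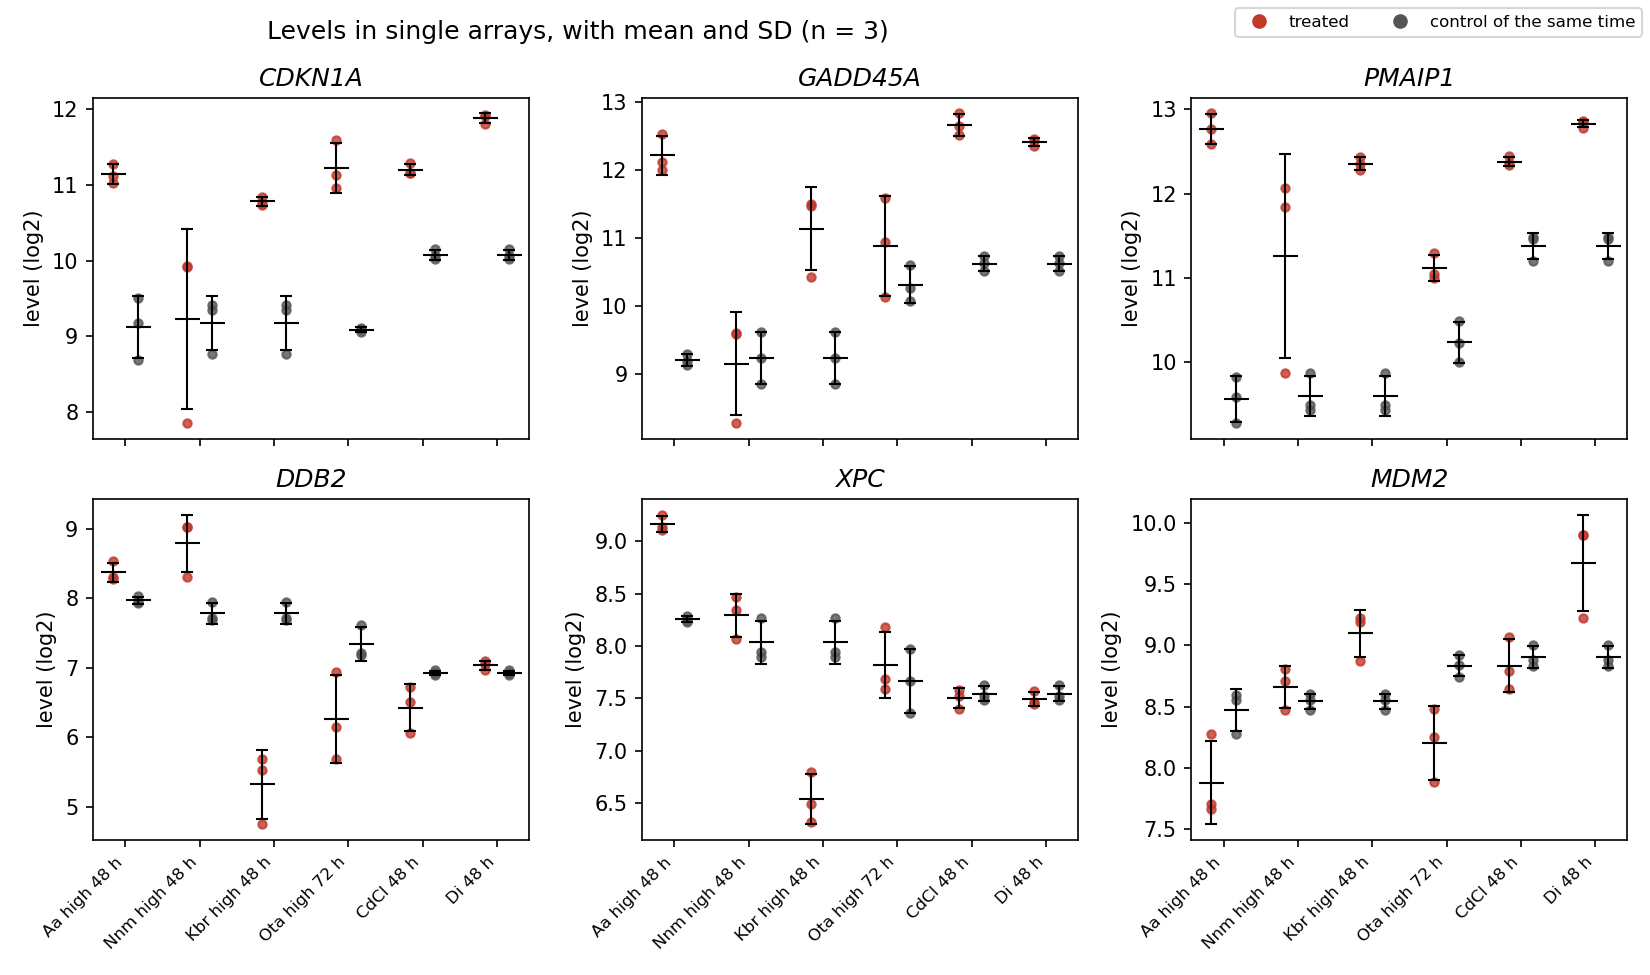
Log2 level on each array, with the mean and SD over 3 arrays, of 6 p53 target genes in treated groups (red) and their controls of the same time (grey); Nnm and Kbr share controls, as do CdCl and Di. CDKN1A, GADD45A and PMAIP1 lie above the controls with Aa, Kbr, CdCl and Di, while DDB2 and XPC lie above them with Aa and below them with Kbr.

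The 5 feedback genes did not share a direction: at the high dose for 48 h 3 fell with Aa, 1 fell with Nnm and 3 rose and 2 fell with Kbr, and 3 rose with Di at 48 h. MDM2, the ligase that p53 induces against itself, was called in 5 of 26 comparisons. It was higher with Kbr at the low dose for 48 h, at 9.42, 9.36 and 9.20, and at the high dose, at 9.19, 9.23 and 8.88, against 8.47, 8.60 and 8.55 in controls. The changes were 0.78 ± 0.17 (adjusted p = 0.00126) and 0.56 ± 0.17 (adjusted p = 0.00837). With Di at 48 h it was 9.22, 9.90 and 9.90, against 9.01, 8.88 and 8.83 (0.77 ± 0.18, adjusted p = 0.00225). It fell with Aa at the high dose for 48 h, to 8.27, 7.67 and 7.70 against 8.59, 8.55 and 8.28 (−0.59 ± 0.16, adjusted p = 0.00411), in the same arrays in which CDKN1A rose. Its largest change was with Ota at the high dose for 24 h, at 6.73, 5.01 and 6.51 against 8.99, 8.32 and 8.66 (−2.57 ± 0.33), and 1 of 2 other MDM2 probe sets with signal did not share that direction. With Nnm at the high dose for 48 h it was 8.71, 8.80 and 8.47, which overlapped the controls.

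PPM1D, the phosphatase WIP1 that switches off p53 signalling, was higher with Aa at the high dose for 24 h, at 10.28, 10.18 and 10.18 against 9.09, 9.24 and 8.96 (1.11 ± 0.14, adjusted p = 1.32e-05). With Nnm at that dose and time it was 10.59, 9.44 and 10.43, against 9.11, 9.28 and 8.75 (1.11 ± 0.21, adjusted p = 0.0006). It was also called higher with Aa at the low dose for 24 h and with Kbr at the high dose for 48 h, where it was 10.07, 9.95 and 9.82 against 9.47, 9.41 and 9.22 (0.58 ± 0.21, adjusted p = 0.0244). Its only fall was with CdCl at 48 h, to 8.43, 8.06 and 8.14 against 9.19, 9.03 and 9.38 (−0.99 ± 0.14). CCNG1, a cyclin that recruits a phosphatase to MDM2, was called lower 9 times and higher never. Aa at the high dose for 48 h brought it to 11.62, 11.48 and 11.74, against 13.07, 13.04 and 12.77 (−1.35 ± 0.16). Ota at the high dose for 72 h brought it to 10.81, 10.76 and 10.82, against 12.97, 13.15 and 13.04 (−2.26 ± 0.13). In both cases all treated arrays lay below all controls.

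ZMAT3, a p53-induced zinc finger protein that binds RNA, was lower in 12 comparisons and higher in 1. With Aa at the high dose for 48 h it was 8.16, 7.30 and 7.42, against 9.33, 9.07 and 8.84 (−1.45 ± 0.22, adjusted p = 3.798e-05). With Nnm it was 8.63, 8.41 and 8.29 and with Kbr 8.53, 8.37 and 8.33, against 9.02, 9.18 and 9.01 (−0.63 ± 0.16 and −0.66 ± 0.16). ZMAT3 was called lower in 9 of the 12 groups of Aa, Nnm and Kbr, with all treated arrays below the controls in those at the high dose for 48 h. Under the high dose of Ota it was 6.25, 4.60 and 6.43 at 24 h, against 9.11, 8.40 and 8.85, and 7.82, 7.81 and 7.90 at 72 h, against 9.12, 9.16 and 9.19. Di at 48 h gave the only rise, at 10.03, 10.04 and 10.07 against 8.86, 9.05 and 8.80 (1.14 ± 0.11). FBXO22, part of a ubiquitin ligase that p53 induces, was lower in 7 and higher in 3 comparisons. Ota at the high dose for 72 h brought it to 5.11, 5.21 and 5.72, against 8.33, 8.42 and 8.31 (−3.01 ± 0.20, adjusted p = 7.484e-09), while with Kbr at the high dose for 48 h it was 9.26, 9.34 and 9.01, against 8.34, 8.32 and 8.56 (0.80 ± 0.17). In 5 of its 10 called comparisons, Ota at the high dose for 72 h included, 1 of its other probe sets did not share the direction.

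Of the 8 measured genes of apoptosis and survival, 4 rose and 1 fell with Aa at the high dose for 48 h, 2 rose and 2 fell with Kbr, 1 rose and 1 fell with Nnm, and 4 rose and none fell with Di at 48 h. PMAIP1, the apoptosis trigger NOXA, was higher in 13 comparisons and lower in none. With Aa at the high dose for 48 h it was 12.59, 12.76 and 12.95, against 9.28, 9.59 and 9.82 in controls (3.20 ± 0.26, adjusted p = 7.742e-08). With Kbr it was 12.27, 12.36 and 12.43, and with Nnm 11.84, 9.87 and 12.07, against 9.43, 9.49 and 9.87. All Kbr arrays lay above the controls (2.75 ± 0.46, adjusted p = 3.302e-05). Nnm replicate 2 did not (1.66 ± 0.46, adjusted p = 0.0105), and the Nnm call was lost without replicate 1 or 3. Ota at the high dose for 72 h gave PMAIP1 levels of 11.05, 11.003 and 11.30, against 10.23, 10.00 and 10.49 (0.88 ± 0.18). With CdCl for 48 h it was 12.44, 12.34 and 12.36, and with Di 12.86, 12.85 and 12.78, against 11.46, 11.20 and 11.48 (1.00 ± 0.09 and 1.45 ± 0.09). Its rise with CdCl was larger at 12 h, where it was 12.84, 12.80 and 13.07 against 10.71, 10.59 and 10.72 (2.23 ± 0.09).

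AEN, a nuclease that takes part in apoptosis after DNA damage, was higher in 11 comparisons and lower in none. Aa at the high dose for 48 h gave 7.69, 8.15 and 8.11, against 6.28, 6.27 and 6.49 (1.64 ± 0.16, adjusted p = 5.959e-07). With Kbr it was 7.58, 7.61 and 7.76, and with Nnm 5.28, 6.13 and 6.34, against 6.23, 6.28 and 6.39. Kbr was called (1.35 ± 0.22) and Nnm was not. With Di at 48 h it was 7.88, 7.97 and 8.15, against 5.97, 6.22 and 6.05 (1.92 ± 0.20), the largest change of the gene. Ota at the high dose for 72 h gave 7.98, 7.09 and 8.02, against 6.84, 6.23 and 6.42 (1.20 ± 0.24). It was called in all 4 groups of Aa and in 3 of 4 of Kbr.

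BAX, which opens the outer mitochondrial membrane, was higher in 4 comparisons and lower in 5. With Kbr at the high dose for 48 h it was 7.28, 6.48 and 6.83, against 8.36, 8.27 and 8.71 (−1.58 ± 0.18, adjusted p = 3.54e-07), below all controls. With Aa at that dose and time it was 8.98, 8.77 and 9.17, against 8.24, 8.18 and 8.86, a called rise of 0.55 ± 0.18 with arrays that overlapped the controls. TP53INP1, a cofactor of p53 in cell death and autophagy, was called lower 9 times and higher never. At the high dose for 48 h it was 7.47, 6.62 and 6.87 with Aa, against 8.16, 8.25 and 7.89 (−1.12 ± 0.28). It was 6.73, 7.54 and 5.99 with Nnm and 6.05, 5.78 and 5.74 with Kbr, against 7.997, 8.25 and 7.92. All treated arrays lay below their controls (Nnm −1.30 ± 0.38, adjusted p = 0.0147; Kbr −2.20 ± 0.38, adjusted p = 5.229e-05), and the Nnm call was lost without Nnm replicate 1 or 3 or control replicate 2. Ota at the high dose for 72 h gave 6.98, 6.07 and 6.82, against 8.38, 8.50 and 8.22 (−1.74 ± 0.31).

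PHLDA3, which restrains the survival kinase AKT, rose with Di at 48 h, to 8.42, 8.60 and 8.66, and with CdCl, to 8.18, 8.02 and 7.75, against 6.70, 6.64 and 6.71 (1.88 ± 0.13 and 1.30 ± 0.13). It rose with Aa at the high dose for 24 h (1.00 ± 0.23) and fell with the high dose of Ota at both times. The death receptor FAS was called in no group of Aa, Nnm or Kbr. It fell with Ota at the high dose for 24 h, to 7.71, 6.20 and 8.65 against 10.38, 10.01 and 10.74 (−2.86 ± 0.42), and with CdCl at 48 h (−0.94 ± 0.10), and was higher with Ra at 48 h, at 10.89, 10.26 and 10.94 against 9.38, 9.40 and 10.30 (1.00 ± 0.24, adjusted p = 0.0239). The Ra arrays overlapped the controls, and the call was lost without control replicate 1 or 2 or Ra replicate 3. TNFRSF10B, the death receptor DR5, was likewise called in no group of Aa, Nnm or Kbr, and its largest rise was with Di at 48 h (0.91 ± 0.08). TRIAP1, a survival factor, was higher in 3 and lower in 4 comparisons, with its largest change at Ota high 24 h (−1.74 ± 0.23).

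DDB2 and XPC, which act in nucleotide excision repair, went opposite ways with Aa and Kbr. Of the 4 measured repair genes, 2 rose and 1 fell with Aa at the high dose for 48 h, 2 fell with Kbr and 1 rose with Nnm. DDB2, the subunit that recognizes ultraviolet damage for nucleotide excision repair, was 8.30, 8.28 and 8.53 with Aa at the high dose for 48 h, against 7.95, 8.03 and 7.94 in controls (0.40 ± 0.10, adjusted p = 0.00171). With Kbr it was 4.75, 5.69 and 5.52, and with Nnm 9.03, 8.31 and 9.02, against 7.71, 7.68 and 7.95. All Kbr arrays lay below and all Nnm arrays above these shared controls (Kbr −2.46 ± 0.27, adjusted p = 1.307e-07; Nnm 1.01 ± 0.27, adjusted p = 0.00818). The Nnm call was lost without Nnm replicate 1. DDB2 was lower in all 4 Kbr groups (at the low dose for 24 h only with control replicates 1 and 2 and all 3 Kbr arrays kept), higher in 3 of 4 Aa groups and higher in both Nnm groups at 48 h. It was also lower with CdCl at 12 h, at 5.92, 5.32 and 5.73 against 7.93, 7.58 and 7.87 (−2.14 ± 0.17), and with the high dose of Ota at 24 h (−2.85 ± 0.27) and 72 h (−1.08 ± 0.27).

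XPC, the damage sensor of the same pathway, was 9.10, 9.25 and 9.14 with Aa at the high dose for 48 h, against 8.25, 8.28 and 8.23 (0.91 ± 0.10, adjusted p = 1.29e-06). With Kbr it was 6.80, 6.49 and 6.32, and with Nnm 8.34, 8.47 and 8.07, against 7.94, 7.89 and 8.27. Kbr was below all controls (−1.50 ± 0.16, adjusted p = 1.679e-07) and Nnm overlapped them. XPC was called higher in all 4 Aa groups and lower in 3 of 4 Kbr groups. RRM2B, a ribonucleotide reductase subunit that supplies nucleotides for repair, was higher with the high dose of Ota at 24 h (0.88 ± 0.21) and 72 h (0.69 ± 0.21), and lower with CdCl at 12 h (−1.17 ± 0.17) and 48 h and with Aa at the high dose for 48 h (−0.31 ± 0.12). POLH, a polymerase that copies past lesions, was called only with CdCl at 12 h (−0.37 ± 0.14, adjusted p = 0.0447).

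Of the 4 measured metabolic and redox genes, 2 rose and 1 fell with Aa at the high dose for 48 h, 1 rose and 2 fell with Kbr, and 2 rose and 2 fell with Di at 48 h. TP53I3, a quinone oxidoreductase known as PIG3, was called most often, 13 times lower and 1 time higher. With Ota at the low dose for 24 h it was 5.33, 5.91 and 5.74, and at the high dose 6.81, 8.001 and 7.10, against 8.21, 8.04 and 8.38 in controls (−2.55 ± 0.26 and −0.91 ± 0.26). At 72 h it was 7.13, 6.60 and 6.89 at the low dose and 2.96, 3.36 and 3.51 at the high dose, against 8.21, 8.11 and 8.24 (−1.31 ± 0.26 and −4.91 ± 0.26). The order of the doses was thus opposite at the 2 times: the high dose lay above the low dose at 24 h (1.64 ± 0.26) and below it at 72 h (−3.60 ± 0.26). Aa showed a similar order at 24 h, where the low dose gave 6.35, 6.16 and 6.29 against 8.28, 8.49 and 8.70 (−2.22 ± 0.16), and the high dose a change of −0.94 ± 0.16. At 48 h it was 8.29, 8.55 and 8.84 with the high dose of Aa, against 7.53, 7.94 and 8.05, the only called rise (0.72 ± 0.16). Kbr at the high dose for 48 h brought it to 6.16, 6.12 and 6.29, against 7.87, 8.06 and 7.79 (−1.72 ± 0.16), and Nnm left it at 7.84, 8.25 and 8.17, which was not called.

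The sestrins SESN1 and SESN2, which restrain the growth kinase mTORC1, did not move together. SESN1 fell most with CdCl at 48 h, to 5.33, 4.96 and 5.16 against 6.79, 7.04 and 7.05 (−1.81 ± 0.12), and with Kbr at the high dose for 48 h (−1.59 ± 0.36). Its fall with Di at 48 h was small (−0.34 ± 0.12, adjusted p = 0.0275), and that call was lost after quantile normalization. SESN2 rose with CdCl at 12 h, to 9.38, 9.15 and 9.34 against 7.68, 8.08 and 7.87 (1.41 ± 0.10). With Ra at 48 h SESN2 was 9.49, 6.19 and 7.34, against 10.45, 10.16 and 10.56 (−2.72 ± 0.55, adjusted p = 0.0161). All Ra arrays lay below the controls, but they spread widely, and the call was lost without control replicate 1 or 2. TIGAR, which diverts glucose to the pentose phosphate pathway, rose with Kbr at the high dose for 48 h, to 10.26, 10.35 and 10.34 against 8.65, 9.08 and 9.31 (1.30 ± 0.24). With the high dose of Ota it was 6.69, 6.12 and 7.67 at 24 h, against 9.27, 9.03 and 9.36, and 9.79, 9.38 and 9.82 at 72 h, against 8.69, 8.64 and 8.87. It was thus below all controls at 24 h (−2.39 ± 0.28) and above them at 72 h (0.93 ± 0.28).

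No p53 target was called between Aa, Nnm and Kbr as a class and the other 6 compounds. The changes of each compound were averaged over its doses and times, and limma was run on these 9 values per gene, with the compound as the replicate. In this test 0 of the 25 genes were called, as were 0 of all 11951 genes (0%). At an unadjusted p under 0.05 there were 2 of the 25, PMAIP1 and PPM1D, beside 8.98% of all genes. Without each compound in turn limma also called 0 of the 25. The median difference was 0.14 over the 25 genes and 0.04 over all genes, but the times averaged differed between compounds. With only the 48 h groups, which leave out Ota, it was 0.020 over the 25 genes and 0.018 over all genes. With only the last time of each compound it was 0.023 and 0.026. PMAIP1 averaged 1.59 in the 3 compounds and 0.51 in the 6 others (difference 1.08 ± 0.42 SE, limma adjusted p = 0.515), and PPM1D 0.48 and −0.09 (0.57 ± 0.20, adjusted p = 0.492). The mean PMAIP1 change was 1.75 with Aa, 1.12 with Nnm and 1.90 with Kbr, against 1.61 with CdCl, 1.17 with Di and −0.38 to 0.32 with the other 4. Nnm, averaged over its low and high doses, thus lay below CdCl and close to Di for this gene. CdCl and Di had a single dose each, so this order holds only for these means.

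The class difference was −0.69 ± 0.49 for PLK2, −0.51 ± 0.32 for TP53INP1 and −0.50 ± 0.33 for ZMAT3, none of them called. Without each compound in turn it ran between −1.36 and −0.09 for PLK2, between −0.79 and −0.29 for TP53INP1 and between −0.71 and −0.34 for ZMAT3. CDKN1A averaged 1.60 with Aa, −0.19 with Nnm and 1.06 with Kbr, against 1.19 with Di, 1.10 with CdCl, 0.95 with Ota, 0.59 with CsA, 0.04 with Fk and −0.38 with Ra. Its class difference was 0.24 ± 0.45 (adjusted p = 0.909), and turned to −0.15 without Aa. For MDM2 it was 0.28 ± 0.27 (adjusted p = 0.792), and −0.03 with only the 48 h groups. When arrays instead of compounds were taken as replicates, 6 of the 25 genes were called, beside 37.9% of all genes (46.2% at an unadjusted p under 0.05). They were PMAIP1, PPM1D and FBXO22 with higher values in the 3 compounds and PLK2, ZMAT3 and BAX with lower ones. Arrays of a compound are not replicates of a class of compounds. The p-values of that fit measure only the spread between arrays, and nothing about the class is drawn from them.

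**Figure D4:**
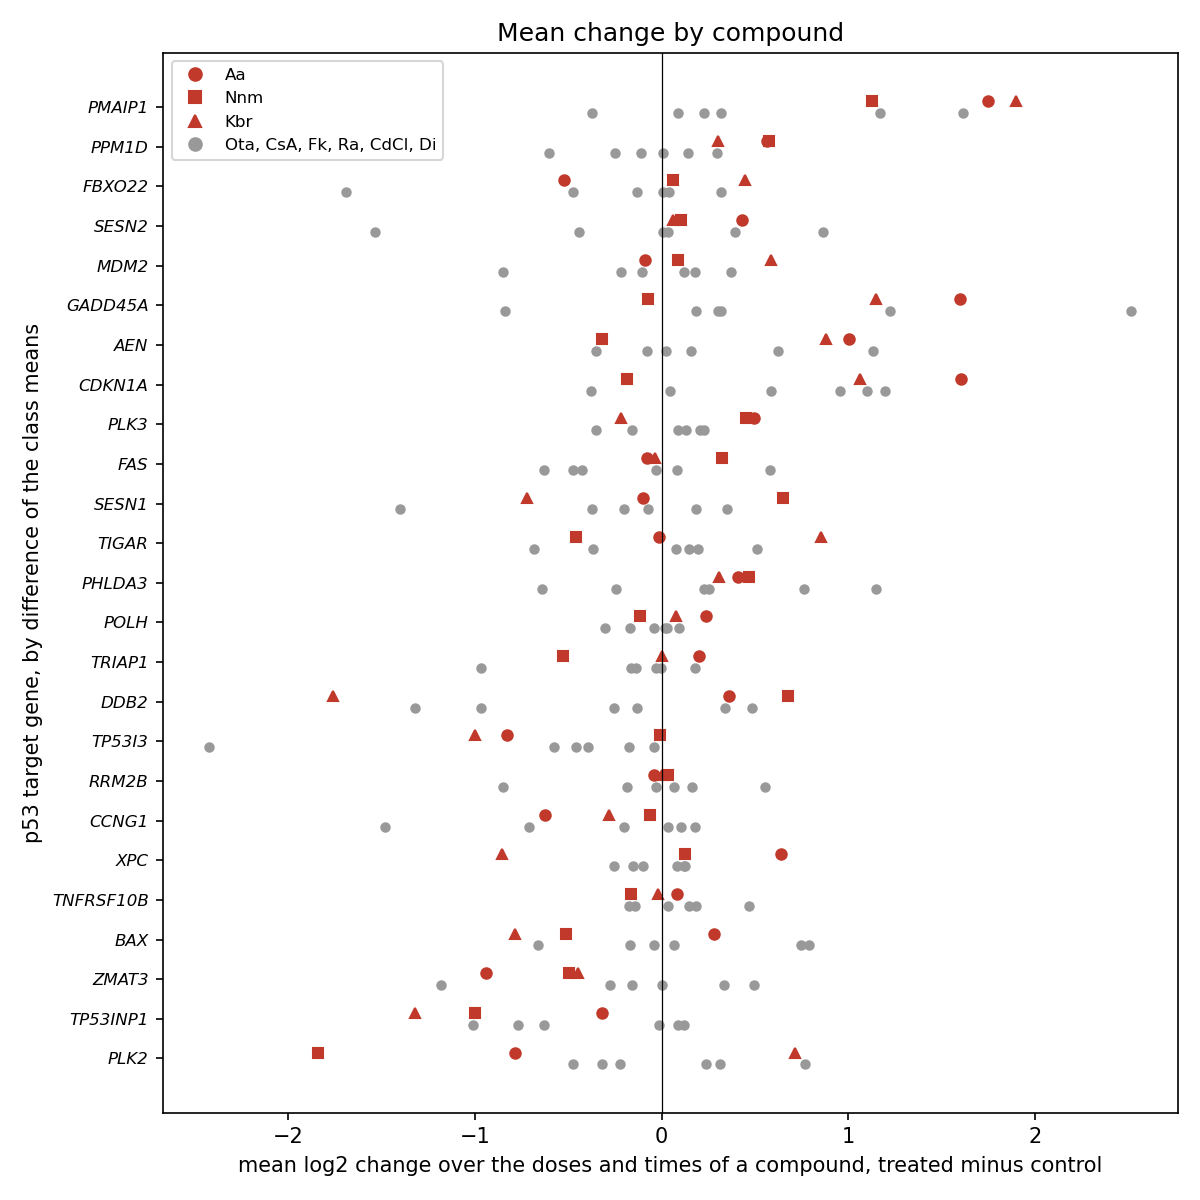
Mean log2 change, treated minus control, over the doses and times of each compound for the 25 p53 target genes, with Aa, Nnm and Kbr in red and the other 6 compounds in grey, ordered by the difference between the class means (PMAIP1 1.08 at the top, PLK2 −0.69 at the bottom). For PMAIP1 the values of CdCl (1.61) and Di (1.17) fall among the red points, and for DDB2 the red points spread between −1.76 (Kbr) and 0.68 (Nnm).

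Within the 3 compounds the responses differed, as measured by 6 differences between their changes at the high dose, 3 pairs at 24 h and 3 at 48 h, a comparison added after the data had been seen. Aa and Kbr differed in 10 of the 25 genes at 48 h (all genes 47.7%) and in 4 at 24 h (all genes 31.4%), or 10 with the replicate number as a block, beside 4750 instead of 3587 of 11425 genes. Aa and Nnm differed in 16 at 48 h (all genes 53.1%) and 7 at 24 h (all genes 38.1%). Kbr and Nnm differed in 18 at 48 h (all genes 56.9%) and 11 at 24 h (all genes 43.9%). The share of the 25 genes lay below that of all genes between Aa and Kbr at both times and between Aa and Nnm at 24 h. It was about that of all genes between Kbr and Nnm at 24 h, and above it in the other pairs at 48 h. The DDB2 change was higher with Aa than with Kbr by 2.86 ± 0.31 at both times (adjusted p = 1.894e-09 at 48 h), and that of XPC by 2.41 ± 0.20 at 48 h (adjusted p = 4.435e-12). TP53I3 and BAX were also higher with Aa than with Kbr at 48 h, by 2.44 ± 0.22 and 2.13 ± 0.26, and MDM2 was lower (−1.15 ± 0.23). For PMAIP1 the difference between Aa and Kbr at 48 h was 0.45 ± 0.57 and for CDKN1A 0.41 ± 0.55, neither of them called. Kbr exceeded Nnm at 48 h by 2.62 ± 0.43 for PLK2 and by 1.55 ± 0.39 for CDKN1A, and lay below it for DDB2 (−3.47 ± 0.22).

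Some p53 targets differed between doses with Aa, Kbr and Ota, and between times with Aa, Ota, CdCl and Di. Many other genes did so as well. The Ota counts, both directions together, lay near the shares of all genes. With Aa at 48 h the high dose differed from the low dose in 15 of the 25 genes, 9 higher and 6 lower (all genes 44.8%, 20.3% higher and 24.5% lower), and at 24 h in 8, all higher (all genes 26.4%, 16.6% higher and 9.79% lower). The largest at 48 h were GADD45A (1.90 ± 0.18), TP53I3 (1.58 ± 0.16) and PMAIP1 (1.49 ± 0.26), and TP53INP1 (−1.36 ± 0.28). With Kbr at 48 h DDB2, BAX, XPC and TP53I3 were lower at the high dose than at the low dose (4 genes, all genes 8.03%, 1.71% higher and 6.32% lower), and at 24 h 0 were called (all genes 0.0544%). With Ota 16 differed at 24 h, 2 higher and 14 lower (all genes 58.9%, 19.6% higher and 39.4% lower), and 16 at 72 h, 5 higher and 11 lower (all genes 57.8%, 20.9% higher and 37% lower). With Nnm 0 of the 25 differed between doses at 24 or 48 h by limma (all genes 0% at both). At an unadjusted p under 0.05 there were 6 and 0, beside 1440 and 569 of 11036 genes.

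The change at the highest dose differed between the 2 times in 9 of the 25 genes with Aa, 5 higher and 4 lower at the later time (all genes 18.8%, 6.63% higher and 12.2% lower), or 15 with the replicate number as a block, beside 4126 instead of 2092 of 11106 genes. It differed in 14 with Ota, 11 higher and 3 lower (all genes 53.4%, 32.7% higher and 20.6% lower), in 12 with CdCl, 6 each way (all genes 30.4%, 21.1% higher and 9.34% lower), and in 14 with Di, 12 higher and 2 lower (all genes 33.6%, 17.5% higher and 16.2% lower). With Aa SESN1 was lower at 48 h (−0.94 ± 0.15) and higher at 24 h (0.56 ± 0.15), a difference of −1.50 ± 0.21 (adjusted p = 0.00057). With Di 12 of the 14 genes had a higher change at 48 h than at 12 h, among them AEN (1.58 ± 0.28), PLK2 (1.55 ± 0.15) and PHLDA3 (1.46 ± 0.19). With CdCl PMAIP1 (−1.23 ± 0.13), SESN2 (−1.09 ± 0.15) and GADD45A (−0.95 ± 0.16) had lower changes at 48 h than at 12 h. With Nnm, Kbr, CsA, Fk and Ra 0 of the 25 differed between times by limma (all genes 0%, 1.89%, 0%, 0% and 0.0459% in that order). At an unadjusted p under 0.05 there were 4, 10, 1, 1 and 5 of the 25. All genes at that threshold were 1297 and 1720 of 11036, 382 of 10806, and 231 and 1803 of 10889.

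Among the regulators of p53, UBE3A (9.53 to 11.90 over all arrays), MDM4 (8.80 to 10.85) and CDKN2A (11.22 to 12.62), which encodes the p16 and ARF proteins, were measured on every array. MDM4, a relative of MDM2 that blocks p53, fell with Ota at the high dose for 72 h (−1.75 ± 0.16, adjusted p = 1.754e-07). UBE3A was higher in the same group (0.94 ± 0.15) and with Kbr at the high dose for 48 h (0.55 ± 0.12). CDKN2A was lower in all 4 Nnm groups (−0.71 ± 0.16 at the high dose for 48 h).

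A further 40 p53 targets were counted beside the 30. Of all genes, 29.8% were higher and 34.5% lower with Aa at the high dose for 48 h. With Kbr at that dose and time the shares were 22.2% and 28.9%, and with Nnm 15.4% and 12.3%. Ota at the high dose for 72 h had 25.3% and 37.9%, Di at 48 h 21.4% and 25.9%, and CdCl 22.9% and 23.5%. The counts below stand beside these shares, and nothing particular to these targets is drawn from them. With Aa at the high dose for 48 h, 11 of 35 tested were higher and 8 lower (median −0.01, all genes −0.04), led by SERTAD1 (4.41 ± 0.27), TNFRSF10D (3.62 ± 0.16) and CYFIP2 (−3.34 ± 0.47). With Kbr it was 7 higher and 8 lower of 34 (median −0.04, all genes −0.07), and CYFIP2 (−3.57 ± 0.31) and ORAI3 (−3.31 ± 0.31) fell most. With Nnm 7 of 34 were higher and 4 lower, with SERTAD1 (2.22 ± 0.74), ANKRA2 (1.62 ± 0.36) and CD82 (1.39 ± 0.47) largest. With Ota at the high dose for 72 h 8 of 34 were higher and 9 lower. With Di at 48 h 12 of 35 were higher and 6 lower, led by KITLG (3.24 ± 0.08), the cell cycle brake SFN (2.26 ± 0.09) and the stress hormone GDF15 (2.10 ± 0.09), and with CdCl 12 of 35 were higher and 9 lower.

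The 15 cell cycle genes that p21, the CDKN1A protein, represses through the DREAM complex did not follow CDKN1A in every compound. With Di at 48 h 14 of 15 fell (median −1.01, all genes −0.02), led by CDC25C (−2.24 ± 0.14), MCM5 (−1.77 ± 0.14) and PLK1 (−1.69 ± 0.54), and with CdCl 13 of 15 fell (median −0.74, all genes −0.02). With Kbr at the high dose for 48 h 10 of 15 rose and 1 fell (median 0.78, all genes −0.07), CCNB1 (1.18 ± 0.26) and KIF23 (1.14 ± 0.26) most. With Ota at the high dose for 72 h 9 rose and 2 fell (median 1.11, all genes −0.15), and MYBL2 (2.07 ± 0.21) rose most. With Aa at the high dose for 48 h 7 rose and 4 fell. CDKN1A was called higher in all 5 of these groups. Of all genes, 25.9% fell with Di and 23.5% with CdCl, and 22.2% rose with Kbr, 25.3% with Ota and 29.8% with Aa. With Aa 34.5% of all genes fell.

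Of 13 ATF4 targets, 4 rose and 6 fell with Aa at the high dose for 48 h, ATF3 (6.89 ± 0.42) and STC2 (3.58 ± 0.25) rising most and DDIT4 (−2.51 ± 0.26) falling most. With Kbr 4 rose and 2 fell, with Di at 48 h 8 rose and 3 fell, and with CdCl 8 rose and 1 fell at 12 h, ATF3 (7.16) by the most, and 3 rose and 7 fell at 48 h. With Ota at the high dose for 72 h 11 of 13 fell and 1 rose (median −2.15, all genes −0.15), and with Ra at 48 h 10 of 13 fell (median −1.96, all genes −0.19). Of all genes, 14.5% rose and 34.3% fell with CdCl at 12 h, and 1.87% rose and 7.46% fell with Ra. The shares in the other groups are those given above for the further p53 targets. The part of the ATF4 targets in the changes of the p53 targets was not tested.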

How the data were processed

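The values are log2 expression per probe set as deposited in the series' value table, computed by GCRMA per the submitters' processing notes, with all arrays normalized together per the series' design text. Software versions for that step are not given in the sources used here. No array was left out. The precision is limited by the 3 arrays of each group, and whether replicates came from separate cultures is stated only by the word biological in the labels, so p-values measure the spread between these arrays.

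Of 54675 probe sets, 41091 carry 1 gene symbol, 1801 several and 11721 none. The 62 control probe sets were left out. For each gene the probe set of highest mean signal was kept, which gave 19775 genes, and 14 of the 30 p53 targets have others, whose direction was compared with it. A gene was tested where it exceeded log2 4 on at least 3 arrays of a family of groups with common controls, which left 10806 to 11138 genes. limma 3.58.1 in R 4.3.3 was fitted to each of the 6 families, with all its groups sharing 1 estimate of the spread, and p-values were adjusted by Benjamini-Hochberg over all genes tested. The changes are treated minus control, with the standard error of the fit. The compounds were compared as 9 means in limma. An exact permutation test over these 9 gives p-values too coarse to pass the adjustment here, and nothing is drawn from it. Figures and tables were made with Python 3.11.15, pandas 2.3.3, numpy 2.4.6 and matplotlib 3.10.9. The fits were also run on simulated data with known shifts. For the compound means these data were drawn as independent, with the spread between arrays of a group and not that between compounds. How well the comparison of the compound classes detects differences in the real data was thus not examined.

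Arrays with the same replicate number deviated together in 3 families, with pairwise correlations of at least 0.28 (Aa), 0.139 (Nnm and Kbr) and 0.534 (CsA), and not in all pairs of the others, where the lowest were −0.0542 (Ota), −0.176 (Fk and Ra) and −0.274 (CdCl and Di). No 2 arrays were the same, the highest correlation between any being 0.9983. The alternatives tried were a filter at log2 6 or none, averaging the probe sets of a gene, quantile normalization, the replicate number as a block, 1 fit of all arrays, and leaving out each array or compound.

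The p53 targets, the other gene lists and the tests were chosen with earlier results of these data known. Values per array are given for the 8 p53 targets called in the most comparisons, the 5 with the largest differences between the compound classes, CDKN1A and MDM2, and for other genes by the 3 largest called rises and falls. Values of further p53 targets were chosen after they were seen.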

Additional observations from a re-analysis of the deposited data

Results flagged for a closer look

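The change against control differed between the 2 times for several p53 targets, by limma's test of the difference itself. This held for 9 of the 25 genes with Aa (all genes 18.8%), 14 with Ota (53.4%), 12 with CdCl (30.4%) and 14 with Di (33.6%). The Ota count lies near the share of all genes. Opposite called changes at the 2 times were seen with Aa at the high dose in TP53I3 (0.72 ± 0.16 at 48 h and −0.94 ± 0.16 at 24 h) and SESN1 (−0.94 ± 0.15 at 48 h and 0.56 ± 0.15 at 24 h) and in TIGAR with Ota at the high dose (0.93 ± 0.28 at 72 h and −2.39 ± 0.28 at 24 h).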

How the results depend on the processing

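Of 444 values of the 37 named changes under an alternative, 421 kept their direction and call, 23 lost the call and 0 reversed. Of those 23, 19 came from leaving out 1 array, and they fell in 8 changes, those of PLK2, TP53INP1, PMAIP1 and DDB2 with Nnm at the high dose for 48 h, SESN2, GADD45A and FAS with Ra at 48 h, and SESN1 with Di at 48 h. In 1 fit of all arrays the count of p53 targets called was 8 with CdCl at 48 h, against 17 in the family fit, 2 with CsA at 48 h, against 0, and 8 with Ra at 48 h, against 3, and 28 instead of 49 changes differed between times. At 12 h that fit called 9 instead of 18 with CdCl and 1 instead of 7 with Di. The counts over all genes moved in that fit too, as given below for CdCl and Di at 12 h and Ra at 48 h. Nothing particular to the p53 targets is drawn from these counts. The replicate block gave 6 with Ra at 48 h, and 10 instead of 4 between Aa and Kbr at 24 h. It also gave 4 instead of 2 with Ota at the low dose for 72 h. Leaving out 1 array gave 1 to 9 with Nnm at the high dose for 48 h and 0 to 7 with Ra at 48 h. All genes called ran from 1442 to 4383 and from 25 to 2361 in these fits. Between the compound classes, taking arrays as replicates called 6 instead of 0. The difference for CDKN1A ran between −0.15 and 0.75 without each compound in turn, and reversed without Aa. That for MDM2 was −0.0291 with only the 48 h groups. Of 73 called changes of genes with a further probe set above background, 67 had the same direction in every such probe set, and the exceptions were in FBXO22 and MDM2. The cause of these changes was not tested.

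Over all genes, the count called between the compound classes was 4528 with arrays as replicates, against 0. The fit of all arrays moved the count to 2783 with CdCl at 12 h, against 5383, to 48 with Di at 12 h, against 1308, and to 3370 with Ra at 48 h, against 1016. With Ra at 48 h it was 473 without the filter, 1734 after quantile normalization and 25 without control replicate 2. The replicate block raised it to 4163 with Aa at the low dose for 24 h, against 2576, and to 857 with Kbr at the low dose for 24 h, against 150. The 3 arrays of a group, and genes near background, limit what can be detected.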
